A study of Homo sapiens with 12 samples.

Results

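The genes described here encode the subunits of oxidative phosphorylation: the 4 complexes of the respiratory chain and ATP synthase. Members were protein-coding genes whose symbols match the families NDUFA, NDUFB, NDUFC, NDUFS and NDUFV (complex I), SDHA to SDHD (complex II), UQCR (complex III), COX4 to COX8 with a letter A, B or C (complex IV), ATP5F, ATP5M and ATP5P (ATP synthase), or the mitochondrially encoded MT-ND, MT-CO, MT-CYB and MT-ATP genes. The rule took 99 of the 58302 genes in the count table: 86 nuclear genes and the 13 protein-coding genes of the mitochondrial genome. By name, 39 nuclear members belong to complex I, 4 to complex II, 9 to complex III, 15 to complex IV and 19 to ATP synthase.

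RNA was sequenced from 2 human prostate cancer cell lines, 22Rv1 and PC3, as poly(A)-enriched libraries made 1 week after lentiviral infection. In each line, 2 libraries carried ETV4AAA-IRES-eGFP (a mutated form of the ETS-family transcription factor ETV4), 2 carried ETV4WT-IRES-eGFP (the wild-type factor) and 2 carried the control vector IRES-eGFP. All 12 libraries therefore came from cells infected with an MSCV-IRES-GFP vector and sorted as living, eGFP-positive cells, so the eGFP libraries are infected controls and no library came from untouched cells. Which residues ETV4AAA changes was not stated. The labels number the replicates but do not say that they were separate cultures, so the p-values below measure the spread between these libraries, which may be technical. The comparisons ask how the level of each transcript differed between ETV4AAA, ETV4WT and eGFP libraries within a line, and between the lines.

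Oxidative phosphorylation passes electrons from NADH and succinate through complexes I to IV to oxygen, pumps protons across the inner mitochondrial membrane, and uses the proton gradient in ATP synthase. The core proton-pumping subunits of complexes I, III and IV and a pair of ATP synthase subunits are made inside the organelle from the mitochondrial genome, whereas the remaining subunits, and all of complex II, are encoded in the nucleus and imported. The 2 sets of genes are transcribed by different polymerases, yet their products are assembled into the same complexes. Many nuclear genes of this pathway are known for binding sites of NRF1 and of ETS-family factors such as GABP near their start sites.

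For orientation, 3 promoters of genes discussed below carry the ETS core searched here and 1 does not; each is shown as the 250 bases before the RefSeq start site (GRCh38.p14), 5′ to 3′ on the gene's strand, with CCGGAAG or its reverse complement CTTCCGG in capitals. ATP5MC1 (chr17:48892537-48892786, plus strand) is shown as the nuclear member with the lowest adjusted p between ETV4AAA and ETV4WT libraries in 22Rv1. SDHB (chr1:17054033-17054282, minus strand) is the complex II gene that fell there, and COX6A1 (chr12:120437863-120438112, plus strand) is a ubiquitous complex IV isoform. NDUFS3 (chr11:47578824-47579073, plus strand) was chosen after its values were seen, as a core complex I subunit with a pair of matches.
ATP5MC1: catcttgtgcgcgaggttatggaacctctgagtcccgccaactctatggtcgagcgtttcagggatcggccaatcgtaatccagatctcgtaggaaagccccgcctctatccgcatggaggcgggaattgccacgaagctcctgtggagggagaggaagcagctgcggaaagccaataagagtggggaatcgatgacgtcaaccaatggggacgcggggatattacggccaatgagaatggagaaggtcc
SDHB: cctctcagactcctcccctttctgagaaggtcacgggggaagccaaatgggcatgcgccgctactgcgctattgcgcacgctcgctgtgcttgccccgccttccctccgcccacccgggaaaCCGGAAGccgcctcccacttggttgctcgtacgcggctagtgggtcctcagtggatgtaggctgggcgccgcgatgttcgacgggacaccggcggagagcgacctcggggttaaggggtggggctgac
COX6A1: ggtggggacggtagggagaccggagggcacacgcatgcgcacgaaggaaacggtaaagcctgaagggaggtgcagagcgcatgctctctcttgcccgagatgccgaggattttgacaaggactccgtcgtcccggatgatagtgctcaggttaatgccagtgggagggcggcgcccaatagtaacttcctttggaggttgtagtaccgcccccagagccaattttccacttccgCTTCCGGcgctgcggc
NDUFS3: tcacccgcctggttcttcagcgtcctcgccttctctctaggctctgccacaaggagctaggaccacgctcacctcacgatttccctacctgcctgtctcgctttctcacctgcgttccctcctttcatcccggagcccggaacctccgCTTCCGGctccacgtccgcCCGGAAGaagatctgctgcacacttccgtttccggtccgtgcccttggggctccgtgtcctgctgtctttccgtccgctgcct

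A match is a description of letters, not a binding site, and no match says only that these letters are not in this window. The RefSeq promoter table held promoters for 68 of the 86 nuclear members. Of these, 17 (25.0%) held CCGGAAG on either strand in the 250 bases, against 2407 of 27305 promoters of all genes (8.82%). The NRF1 motif (GCGCA, any base, then GCGC), also searched on both strands, was in 15 member promoters (22.1%) and in 1509 promoters of all genes (5.53%).

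Total counts ranged from 41698738 to 51199207 per library. Levels are given as CPM, which are counts scaled to a common library total after adjustment by a normalization (TMM) factor per library. ETV4 itself stood at 389.9 and 281.1 CPM in 22Rv1 ETV4AAA libraries. It stood at 385.1 and 484.5 CPM in ETV4WT libraries and at 31.2 and 24.9 CPM in eGFP libraries. In PC3 the libraries labelled ETV4AAA had 222.6 and 109.4 CPM, those labelled ETV4WT 214.6 and 111.6 CPM, and the eGFP libraries 116.4 and 125.7 CPM. ETV4 was thus above the eGFP libraries in replicate 1 of each PC3 construct and not in replicate 2, and every PC3 direction below is that of the libraries as labelled. In the line check, VIM, the mesenchymal filament protein vimentin, was at 6.2 to 12.5 CPM in 22Rv1 and 473 to 640 CPM in PC3, as the labels require. The marker lists as a whole were mixed. In eGFP libraries, 6 of 8 listed 22Rv1 markers were higher in 22Rv1 than in PC3 and 1 was lower (edgeR adjusted p under 0.05). Of the 6 listed PC3 markers, 4 were lower in 22Rv1 and 2 were higher at that threshold. Genes with too few counts were left out of the tests, which kept 23238 genes, 81 of the 86 nuclear members and all 13 mitochondrial ones.

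Levels were compared between genes per kilobase of coding transcript. Over all 12 libraries the nuclear members had a median of 146 CPM per kb, with the highest at 2735 CPM per kb for ATP5F1B, the catalytic beta subunit of ATP synthase. The mitochondrial genes had a median of 3301 CPM per kb, between 1255 CPM per kb for MT-ND6 and 14622 CPM per kb for MT-CO2. MT-CO2 led in each 22Rv1 group, whereas in each PC3 group MT-CO1 led, with 8007 CPM per kb in PC3 eGFP libraries against 5642 CPM per kb for MT-CO2. By complex, the nuclear medians were 96.3 CPM per kb in complex I, 176 in complex II, 178 in complex III, 219 in complex IV and 182 in ATP synthase. Genes of the mitochondrial genome thus led in level per length. MT-CO1, the catalytic core of complex IV, took 26.7% of the mitochondrial counts pooled over all libraries, and MT-CO2, its copper-binding partner, took 16.2%.

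Summed over members, nuclear counts in 22Rv1 were lowest in ETV4AAA libraries, at 12686 and 14050 CPM, against 21268 and 17543 CPM in ETV4WT libraries and 16181 and 16672 CPM in eGFP libraries. The mitochondrial sum was 77921 ± 6635 CPM in ETV4AAA, 84535 ± 2500 CPM in ETV4WT and 70838 ± 4857 CPM in eGFP libraries (SD, n = 2 each). The mean nuclear sum in ETV4AAA libraries was 0.689 times that in ETV4WT and 0.814 times that in eGFP libraries, and the mean mitochondrial sum 0.922 and 1.10 times. In ETV4WT libraries the nuclear sum was 1.18 times and the mitochondrial sum 1.19 times that in eGFP libraries. These sums are given as descriptions, without a test.

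The ratio of mitochondrial to nuclear counts was 5.77 and 5.88 in 22Rv1 ETV4AAA libraries, 4.06 and 4.72 in ETV4WT libraries, and 4.17 and 4.46 in eGFP libraries. The ETV4AAA libraries lay above all 4 others of that line, while the ETV4WT and eGFP ranges overlapped. A ratio of sums is led by a few abundant genes: without MT-CO1 and MT-CO2 the group means were 3.08, 2.33 and 2.38, and as a ratio of medians per kilobase 25.4, 19.7 and 20.8, in the same order of groups. In PC3 the ratio was 3.86 ± 0.468 in ETV4AAA, 4.18 ± 0.265 in ETV4WT and 3.68 ± 0.0284 in eGFP libraries (SD, n = 2 each), and the nuclear sum stayed between 10669 and 12215 CPM. In bulk RNA, a different mix of cells and a different amount of RNA per cell cannot be told apart.

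**Figure D1:**
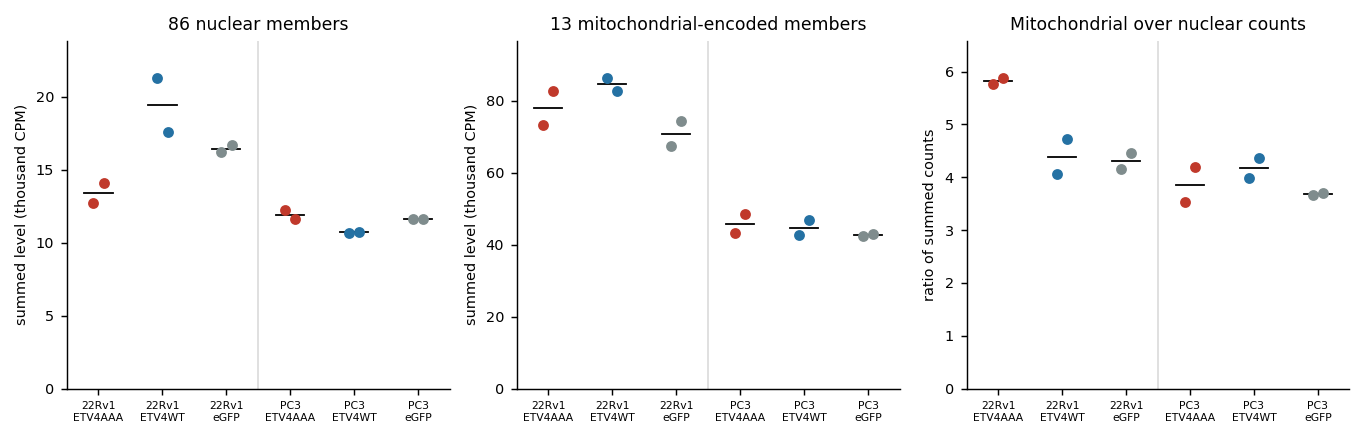
Summed CPM of the 86 nuclear members, summed CPM of the 13 mitochondrial genes, (both in units of 1000 CPM), and their ratio, in each library (points) with group means (bars), 22Rv1 groups left of PC3 groups. The 22Rv1 ETV4AAA libraries hold the lowest nuclear sums of that line and the highest ratios, 5.77 and 5.88.

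In 22Rv1, 41 of the 81 nuclear members tested fell in ETV4AAA libraries relative to ETV4WT libraries and none rose, while none of the 13 mitochondrial genes passed in either direction (2 of the 13 had an unadjusted p under 0.05, and the DESeq2 Wald test called 0). Calls are at an adjusted p of 0.05 in edgeR's quasi-likelihood test with Benjamini-Hochberg adjustment over all genes tested. Across all genes, 9.62% fell and 13.9% rose in this comparison. All 81 fitted log2 fold changes of nuclear members were below 0, with a median of -0.55, against a median of -0.03 over all genes tested and -0.09 over the mitochondrial genes. In 70 of the 81 nuclear members both ETV4AAA libraries were below both ETV4WT libraries and in none above, which held for 31.8% and 29.4% of all genes tested. Every complex contributed: 13 of 18 tested ATP synthase genes fell (median log2 fold change -0.58), 7 of 12 of complex IV (-0.61), 6 of 9 of complex III (-0.54), 14 of 38 of complex I (-0.44) and 1 of 4 of complex II (-0.51).

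The size of the count depended on replicate 1 of both groups. It was 12 without ETV4AAA replicate 1 and 12 without ETV4WT replicate 1, against 35 without ETV4AAA replicate 2 and 46 without ETV4WT replicate 2. Called under each of these omissions were 11 members: ATP5MC1, ATP5MC3, ATP5F1B, NDUFA1, NDUFB2, NDUFB6, NDUFS3, SDHB, UQCRFS1, UQCRHL and COX7B.

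**Figure D2:**
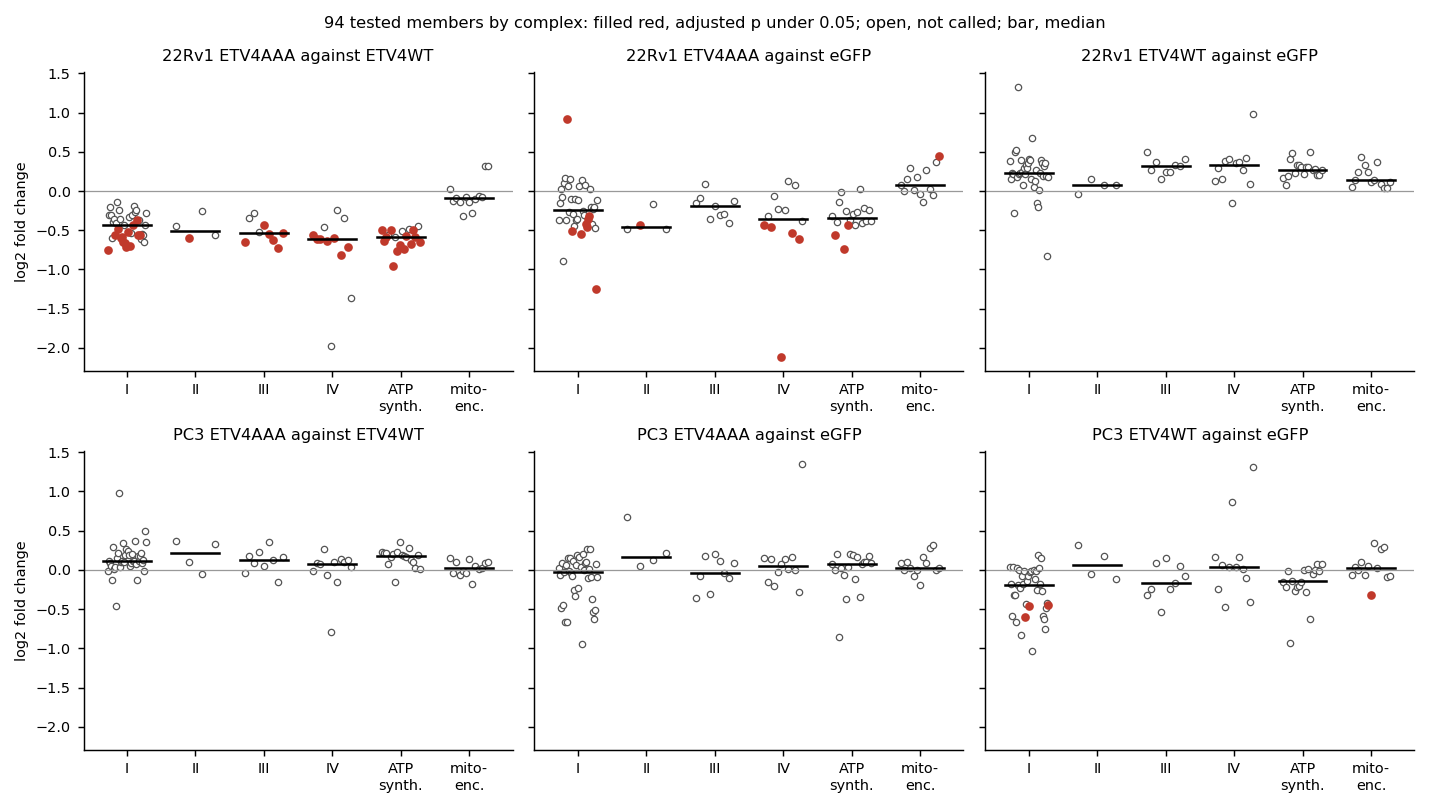
Fitted log2 fold change of each tested member by complex and for the mitochondrial genes, in 6 comparisons within a line; filled red points have an adjusted p under 0.05 and bars are medians. In 22Rv1 ETV4AAA against ETV4WT the 81 nuclear members all lie below 0, while the mitochondrial genes scatter around -0.09.

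ATP synthase held the clearest falls. ATP5MC1, 1 of 3 genes for the membrane-rotor subunit c, had 109.1 and 126.6 CPM in 22Rv1 ETV4AAA libraries, 249.1 and 209.5 CPM in ETV4WT libraries and 194.2 and 198.2 CPM in eGFP libraries. The ETV4AAA libraries were below all 4 others, with a log2 fold change of -0.96 ± 0.14 (SE) against ETV4WT (edgeR adjusted p = 0.000352). ATP5MC3, a second gene for the same mature protein, had 139.8 and 153.3 CPM, against 275.1 and 221.9 CPM in ETV4WT libraries (-0.76 ± 0.12, edgeR adjusted p = 0.000587). Its eGFP libraries, at 195.8 and 200.4 CPM, lay between those of the other groups. ATP5F1B, the catalytic subunit, had 1968 and 2129 CPM in ETV4AAA libraries, against 3354 and 3005 CPM in ETV4WT libraries (-0.63 ± 0.12, edgeR adjusted p = 0.00162). The eGFP libraries had 2900 and 3138 CPM of it, so that ETV4AAA again stood below both other groups without overlap. The other called genes of this complex included ATP5MF (-0.74), ATP5PO (-0.64), ATP5F1C (-0.58) and ATP5F1A (-0.49), of the membrane arm, the peripheral stalk and the matrix portion.

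In complex I, NDUFA1, an accessory subunit of the membrane arm, had 166.8 and 169.3 CPM in 22Rv1 ETV4AAA libraries and 324.3 and 242.0 CPM in ETV4WT libraries (log2 fold change -0.75 ± 0.13, edgeR adjusted p = 0.00148). NDUFB6, also an accessory subunit, had 67.7 and 72.8 CPM against 130.1 and 98.7 CPM in ETV4WT libraries (-0.70 ± 0.14, edgeR adjusted p = 0.00264). NDUFB2 had 101.8 and 118.6 CPM against 195.9 and 154.5 CPM in ETV4WT libraries (-0.67 ± 0.14, edgeR adjusted p = 0.00343). None of the 3 overlapped between the groups, and in each the distance between the ETV4WT libraries exceeded that between the ETV4AAA libraries. NDUFS3, a core subunit of the matrix arm whose promoter is shown above, had 81.4 and 82.1 CPM in ETV4AAA libraries and 127.4 and 112.8 CPM in ETV4WT libraries (-0.55 ± 0.11, edgeR adjusted p = 0.00386).

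Complex II has 4 subunits, all nuclear. SDHB, the iron-sulfur subunit, had 100.4 and 112.8 CPM in 22Rv1 ETV4AAA libraries, 178.3 and 143.5 CPM in ETV4WT libraries and 139.0 and 149.4 CPM in eGFP libraries (-0.59 ± 0.12 against ETV4WT, edgeR adjusted p = 0.00416). The 2 ETV4AAA libraries were the lowest of the line. The flavoprotein SDHA had 151.5 and 141.8 CPM against 197.6 and 202.6 CPM in ETV4WT libraries, at -0.45 with an edgeR adjusted p of 0.092. The membrane anchors did not pass either: SDHC was at -0.25 (edgeR adjusted p = 0.195) and SDHD at -0.57 (edgeR adjusted p = 0.058).

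In complex III the called genes were UQCRH, UQCRHL, UQCRQ, UQCRC2, UQCRFS1 (the Rieske iron-sulfur protein) and UQCR10, with log2 fold changes from -0.43 to -0.73. UQCRHL is a near copy of UQCRH, so their counts cannot be assigned with certainty. In complex IV, COX7B fell with 170.7 and 224.1 CPM in ETV4AAA libraries against 397.1 and 295.8 CPM in ETV4WT libraries (-0.81 ± 0.17, edgeR adjusted p = 0.00404). COX6A1 had 132.8 and 163.9 CPM against 259.8 and 195.2 CPM in ETV4WT libraries (-0.62 ± 0.15, edgeR adjusted p = 0.0115), a call absent without ETV4AAA replicate 1 or ETV4WT replicate 1. COX7A2 (-0.60, edgeR adjusted p = 0.0117) and NDUFA4 (-0.56, edgeR adjusted p = 0.0202) were lost without the same libraries, and COX8A (-0.71, edgeR adjusted p = 0.0312) was lost without any 1 of the 4. NDUFA4 carries a complex I name but is known as a complex IV subunit.

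**Figure D3:**
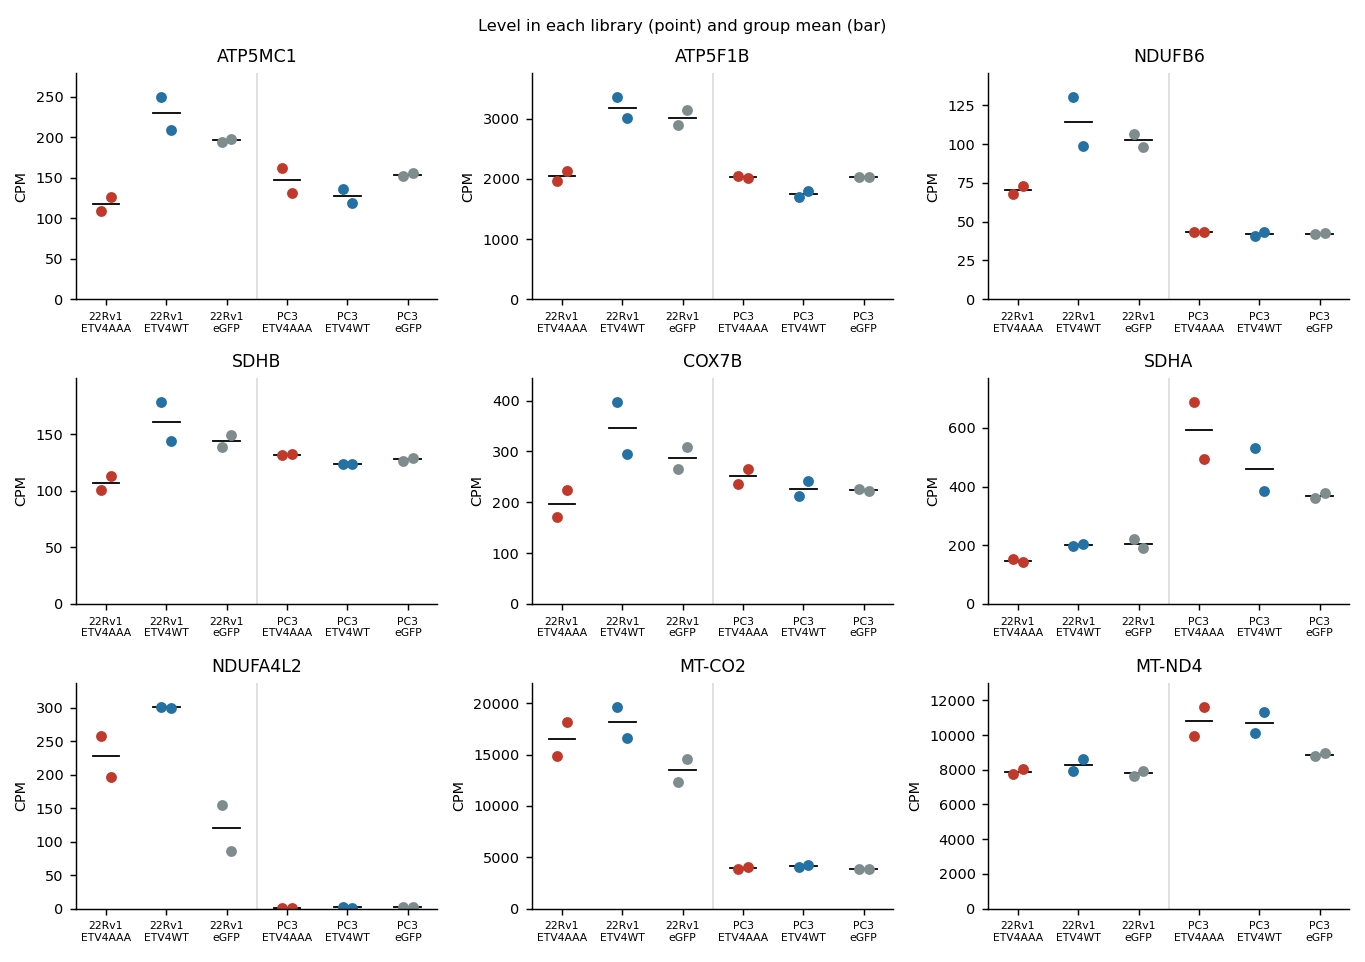
CPM of 9 members in each library (points) with group means (bars), 22Rv1 groups left of PC3 groups. ATP5MC1, ATP5F1B, NDUFB6 and SDHB are lowest among 22Rv1 libraries in the 2 ETV4AAA libraries; MT-CO2 and NDUFA4L2 are higher in 22Rv1 than in PC3, and MT-ND4 is not.

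Matches of the ETS core among the members stood as follows. Of the 32 members that fell and have a promoter in the table, 10 held the core and 6 the NRF1 motif. Of the 32 not called, 7 held the core and 9 the NRF1 motif. The match counts are small and were not tested. ATP5MC1, which had the lowest adjusted p, has neither motif in its window.

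None of the mitochondrial genes was called in this comparison, and their log2 fold changes ran from -0.32 for MT-CO3 (edgeR adjusted p = 0.153) to 0.32 for MT-ND6 (edgeR adjusted p = 0.131). MT-CO1 was at 19432 and 21025 CPM in ETV4AAA libraries against 21343 and 21845 CPM in ETV4WT libraries (-0.09). MT-CYB, cytochrome b of complex III, was at -0.07, MT-ATP6 at 0.03, MT-ATP8 at -0.13, MT-CO2 at -0.13, and the complex I genes MT-ND1, MT-ND2, MT-ND3, MT-ND4, MT-ND4L and MT-ND5 at -0.14, -0.28, -0.10, -0.07, -0.08 and 0.32. Under the GC and length correction described below, MT-CO3 (-0.36), MT-ND2 (-0.26) and MT-CO1 (-0.19) fell and MT-ND6 (0.29) rose. The difference between the nuclear and the mitochondrial members was not itself tested.

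Against the eGFP control, 16 nuclear members fell and 1 rose in 22Rv1 ETV4AAA libraries, and 1 mitochondrial gene rose. Among all genes tested, 14.4% fell and 17.4% rose in this comparison. The nuclear median log2 fold change was -0.29, the mitochondrial median 0.08 and the median of all genes 0.00. Both ETV4AAA libraries were below both eGFP libraries for 50 of the 81 nuclear members and above them for 1, against 33.0% and 32.5% of all genes tested. Of complex I, 7 of 38 fell and 1 rose; of complex IV 5 of 12 fell, of ATP synthase 3 of 18, of complex II 1 of 4 and of complex III 0 of 9. The count of all members called was 18; it was 4 without ETV4AAA replicate 1, 12 without ETV4AAA replicate 2, 10 without eGFP replicate 1 and 3 without eGFP replicate 2.

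ATP5MC1 (log2 fold change -0.74 ± 0.14, edgeR adjusted p = 0.00172) and ATP5F1B (-0.56 ± 0.11, edgeR adjusted p = 0.00285) were the 2 members called under each of these omissions. NDUFB6 (-0.55), ATP5MC3 (-0.43), SDHB (-0.44), COX7B (-0.54), COX6A1 (-0.46), COX8A (-0.61) and NDUFS3 (-0.32) also fell. NDUFS1, the largest subunit of complex I, had 144.0 and 153.7 CPM in ETV4AAA libraries and 191.5 and 216.4 CPM in eGFP libraries (-0.45 ± 0.13, edgeR adjusted p = 0.0158), a call absent without ETV4AAA replicate 1 or eGFP replicate 2. NDUFV2, a core subunit of the NADH-binding module, was listed at 0.444 and 0.237 CPM against 0.739 and 0.906 CPM in eGFP libraries (-1.25, edgeR adjusted p = 0.0105), a level too low for such a subunit. Other annotated genes overlap 84.7% of its coding sequence, and its values are uncertain. Whether reads were lost to the overlap was not tested. COX7A1 was at 5 and 0 counts against 16 and 9 counts in eGFP libraries (-2.12, edgeR adjusted p = 0.0469), close to the limit of detection.

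NDUFA4L2, a paralog of NDUFA4 known to be induced by hypoxia, was the nuclear member that rose. It had 257.3 and 196.8 CPM in 22Rv1 ETV4AAA libraries, 301.3 and 300.1 CPM in ETV4WT libraries and 154.4 and 85.95 CPM in eGFP libraries. Both construct groups stood above eGFP without overlap. The log2 fold change was 0.92 ± 0.29 for ETV4AAA (edgeR adjusted p = 0.0324, lost without ETV4AAA replicate 1, ETV4AAA replicate 2 or eGFP replicate 2) and 1.32 ± 0.30 for ETV4WT (edgeR adjusted p = 0.0525). MT-ND6, the member encoded on the light strand of the mitochondrial genome, had 796.1 and 796.3 CPM in ETV4AAA libraries, 612.2 and 660.4 CPM in ETV4WT libraries and 605.1 and 567.5 CPM in eGFP libraries. Its log2 fold change against eGFP was 0.44 ± 0.14 (edgeR adjusted p = 0.0337), a call lost without any 1 of the 4 libraries.

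ETV4WT against eGFP in 22Rv1 gave no called member of either kind by edgeR's quasi-likelihood test, while 1.06% of all genes rose and 0.439% fell. At an unadjusted p under 0.05 there were 19 nuclear and 2 mitochondrial members, and the DESeq2 Wald test called 1. The nuclear median log2 fold change was 0.26 and the mitochondrial median 0.13, with 75 of 81 nuclear and 13 of 13 mitochondrial genes above 0, against a median of 0.01 over all genes. In 40 nuclear members both ETV4WT libraries were above both eGFP libraries and in 3 below, compared with 22.6% and 22.9% of all genes tested. Leaving out ETV4WT replicate 2 gave 4 called members, all higher, and a nuclear median of 0.395. Leaving out ETV4WT replicate 1 gave none, with a nuclear median of 0.088 and a mitochondrial median of 0.166. The ETV4WT and eGFP libraries are each shared with another of these comparisons, so the 3 comparisons in the line are not independent.

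The spread between replicates followed base composition. Over 76 nuclear members of at least 1 CPM, the log2 ratio of replicate 2 over replicate 1 correlated with the GC content of the transcript at r = -0.69 in 22Rv1 ETV4AAA, 0.66 in 22Rv1 ETV4WT, -0.75 in 22Rv1 eGFP, -0.84 in PC3 ETV4AAA, -0.83 in PC3 ETV4WT and 0.72 in PC3 eGFP libraries. The points share their pair of libraries, and genes are not independent replicates. For the 8 members of at least 60% GC the median log2 ratio reached -1.38 in PC3 ETV4AAA and -1.22 in PC3 ETV4WT. With a correction for GC and transcript length, an alternative added after seeing the data, all 41 nuclear falls of ETV4AAA against ETV4WT were still called, 65 nuclear members were called lower and none higher, and the nuclear median was -0.55. Across all genes 21.8% then fell and 18.9% rose. Against eGFP, the correction gave 53 nuclear members lower and 1 higher in 22Rv1 ETV4AAA libraries, where 26.8% of all genes fell and 22.3% rose. For 22Rv1 ETV4WT against eGFP it gave 10 nuclear and 3 mitochondrial members higher and none lower, where 5.59% of all genes rose and 5.02% fell.

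**Figure D4:**
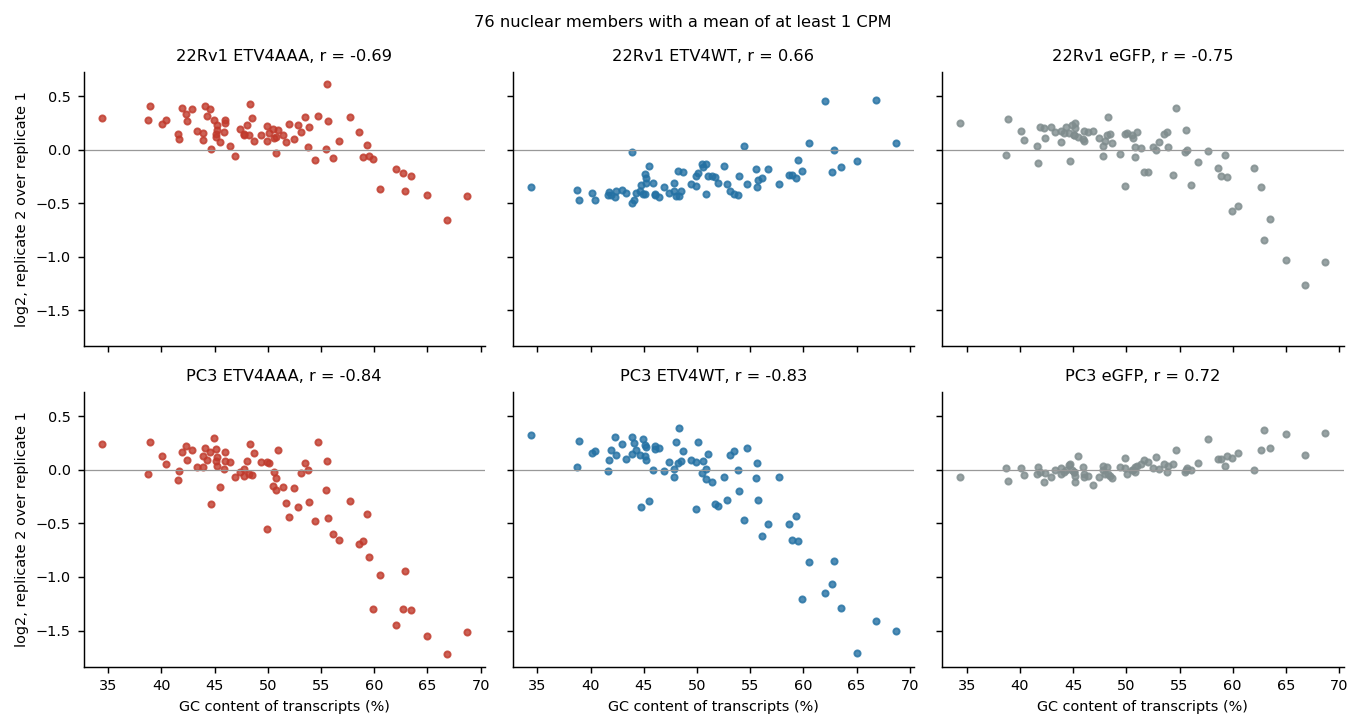
Log2 ratio of replicate 2 over replicate 1 (vertical axis) against transcript GC content in percent (horizontal axis) for 76 nuclear members in each of the 6 groups. The ratio falls with GC in 22Rv1 ETV4AAA, 22Rv1 eGFP, PC3 ETV4AAA and PC3 ETV4WT libraries and rises with GC in 22Rv1 ETV4WT and PC3 eGFP libraries, with r from -0.84 to 0.72.

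Other quantities moved with the nuclear members in 22Rv1. Among protein-coding genes of at least 20 CPM, the 2016 with transcripts up to 1000 bases had a median log2 fold change of -0.16 in ETV4AAA against ETV4WT libraries. The 64 nuclear members of that length had -0.56. Members here and below were all those tested, without the floor of 20 CPM. From 1000 to 2000 bases the medians were -0.13 for all such genes and -0.49 for 9 members, from 2000 to 3000 bases -0.07 and -0.41 for 6 members, and over 3000 bases 0.04 and -0.42 for 2 members. The median of the members was the lower at each length, although the 2 sets differ in that floor. Summed cytosolic ribosomal protein transcripts, also short, stood at 105818 ± 4460 CPM in ETV4AAA, 135961 ± 22434 CPM in ETV4WT and 88490 ± 2746 CPM in eGFP libraries (SD, n = 2 each). Unlike the nuclear subunits, they were higher in ETV4AAA than in eGFP libraries.

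Genes listed as markers of the lines also moved, although 2 of the 6 on the PC3 list were higher in 22Rv1 than in PC3 eGFP libraries. All 6 genes of the PC3 list were higher in both 22Rv1 ETV4AAA libraries than in every other 22Rv1 library, and their summed level was 735 and 727 CPM in ETV4AAA, 274 and 270 CPM in ETV4WT and 140 and 149 CPM in eGFP libraries, against 1061 to 1511 CPM in PC3. CD44, a surface glycoprotein, was the most abundant of them, with 430.5 and 426.9 CPM in ETV4AAA, 254.9 and 249.3 CPM in ETV4WT and 120.0 and 128.7 CPM in eGFP libraries. TGFBI, an extracellular matrix protein, had 268.7 and 264.2 CPM in 22Rv1 ETV4AAA libraries and at most 0.88 CPM in the others of that line. It was at most 0.161 CPM in PC3, so it adds to the 22Rv1 ETV4AAA sum and hardly to that of PC3. Of the 22Rv1 list, 6 of 8 genes were lower in both ETV4AAA than in both ETV4WT libraries. AXL, a defining PC3 marker, was near 0 in all 22Rv1 libraries. The part of transcript length, ribosomal protein transcripts and these markers in the fall of the nuclear members was not tested.

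In PC3 few members were called. Relative to eGFP, 3 nuclear members and 1 mitochondrial gene fell in the libraries labelled ETV4WT and none rose, where 10.7% of all genes fell and 12.7% rose. NDUFV3, an accessory subunit at the NADH-binding module, had 40.3 and 40.5 CPM in ETV4WT libraries and 54.3 and 55.5 CPM in eGFP libraries (log2 fold change -0.44 ± 0.11, edgeR adjusted p = 0.0146). NDUFB10 had 91.4 and 67.9 CPM against 119.5 and 122.3 CPM in eGFP libraries (-0.60 ± 0.17, edgeR adjusted p = 0.0217). Groups did not overlap for either gene. NDUFB4 (-0.47, edgeR adjusted p = 0.0480) and MT-ND1 (-0.32, edgeR adjusted p = 0.0497) stood close to the threshold. No member was called without ETV4WT replicate 2, eGFP replicate 1 or eGFP replicate 2, whereas 11 were called, all nuclear and lower, without ETV4WT replicate 1. Without both PC3 construct libraries of replicate 2, those with ETV4 not above eGFP, 1 nuclear member was called and it was higher; upper-quartile scaling called 1 mitochondrial gene, also higher. The nuclear median was -0.14 and the mitochondrial median 0.03, against 0.00 over all genes. With upper-quartile scaling the nuclear median was 0.015 where that of all genes was 0.116. Protein-coding genes of at least 20 CPM with transcripts up to 1000 bases had a median of -0.15. The 64 nuclear members of that length had -0.13, so the shift was not particular to the members. Under the GC and length correction 9 nuclear members fell and 2 rose, and 1 mitochondrial gene went each way, where 16.1% of all genes fell and 19.3% rose.

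Between libraries labelled ETV4AAA and eGFP in PC3 no member was called by edgeR, where 2.45% of all genes rose and 1.24% fell; 1 nuclear and 1 mitochondrial member had an unadjusted p under 0.05, and DESeq2 called 1 member. The nuclear median log2 fold change was 0.03. SDHA had 687.6 and 495.1 CPM in ETV4AAA libraries and 361.5 and 376.3 CPM in eGFP libraries, at 0.68 with an edgeR adjusted p of 0.0605. Without ETV4AAA replicate 1, 8 members were called, all nuclear and lower, and without ETV4AAA replicate 2, 1 was called, higher. The GC and length correction called 1 member, higher, where 5.27% of all genes rose and 4.01% fell. Between ETV4AAA and ETV4WT in PC3 again no member was called, where 3.65% of all genes rose and 7.32% fell; 4 nuclear and 0 mitochondrial members had an unadjusted p under 0.05, and DESeq2 called 0. Of the 81 nuclear members, 68 had a log2 fold change above 0, with a median of 0.12 (0.004 with upper-quartile scaling, where that of all genes was -0.079). The sign of the median in PC3 was thus opposite to that in 22Rv1, at sizes that did not pass. Protein-coding genes of at least 20 CPM with transcripts up to 1000 bases had a median of 0.11 in PC3. The 64 nuclear members of that length had 0.12, so the shift in PC3 was not particular to the members. With the correction 4 nuclear members rose, 2 fell and 1 mitochondrial gene fell, where 10.3% of all genes rose and 14.6% fell.

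The difference in effect between the lines was tested as an interaction. For ETV4AAA against eGFP, 5 nuclear members changed more negatively in 22Rv1 than in PC3 and 1 more positively, where 6.73% and 9.48% of all genes did. SDHA led, with an interaction of -1.17 ± 0.25 on the log2 scale (edgeR adjusted p = 0.00720). It had 151.5 and 141.8 CPM in 22Rv1 ETV4AAA libraries against 222.4 and 188.9 CPM in eGFP libraries, and stood higher in ETV4AAA than in eGFP libraries in PC3. This call stayed without each library in turn, while those of NDUFS1 (-0.72), ATP5MC1 (-0.67), ATP5F1B (-0.56), NDUFV2 (-1.32) and NDUFA4L2 (1.57) were each lost without at least 1 of them. The count of 6 became 1 without PC3 eGFP replicate 1 or PC3 eGFP replicate 2, 2 without 22Rv1 eGFP replicate 2, 3 without 22Rv1 ETV4AAA replicate 2, and 4 to 6 without any of the other libraries of this contrast. With the GC and length correction 33 nuclear members were called negative and 1 positive, and 2 mitochondrial genes positive, where 15.8% of all genes were negative and 14.6% positive. For ETV4WT against eGFP, 5 nuclear members changed more positively in 22Rv1 and none more negatively, where 4.92% and 7.57% of all genes did. These were NDUFB4 (0.88), COX6B1 (0.86), NDUFA2 (0.82), NDUFB10 (0.81) and NDUFV3 (0.62). The count of 5 became 0 without PC3 ETV4WT replicate 2, 22Rv1 ETV4WT replicate 1, PC3 eGFP replicate 1, PC3 eGFP replicate 2 or 22Rv1 eGFP replicate 2, and 1 without 22Rv1 eGFP replicate 1. It was 14 without PC3 ETV4WT replicate 1 and 10 without 22Rv1 ETV4WT replicate 2. Without both PC3 construct libraries of replicate 2, 1 nuclear member was called and it was negative. With the correction 21 nuclear and 5 mitochondrial members were positive and 1 nuclear member negative, where 11.4% of all genes were positive and 14.5% negative; of the 5 named genes NDUFB10 (0.15) and COX6B1 (0.37) were no longer called and the other 3 were. With all 12 libraries and without the correction, no mitochondrial gene was called in either interaction.

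The lines themselves differed most. In eGFP libraries, 42 nuclear members were higher and 6 lower in 22Rv1 than in PC3, and 8 of 13 mitochondrial genes were higher and none lower, where 34.9% of all genes were higher and 36.0% lower. The nuclear median log2 fold change was 0.54 and the mitochondrial median 0.57, against 0.00 over all genes. The mean nuclear sum was 1.41 times and the mean mitochondrial sum 1.66 times that in PC3. Complex IV had 9 of 12 genes higher (median 0.90), complex III 5 of 9 (0.59), complex I 18 of 38 with 4 lower (0.54), ATP synthase 9 of 18 (0.39) and complex II 1 of 4 with 2 lower (-0.33). Without each library in turn, 39 of the 48 nuclear and 7 of the 8 mitochondrial calls stayed. With the GC and length correction 59 nuclear members were higher and 8 lower, and 12 mitochondrial genes were higher. Across all genes 44.3% were then higher and 32.5% lower. The median was then 1.16 for mitochondrial genes, 0.71 for nuclear members and 0.24 for all genes.

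NDUFA4L2 differed most, with 154.4 and 85.95 CPM in 22Rv1 eGFP libraries and 1.61 and 2.09 CPM in PC3 eGFP libraries (log2 fold change 6.02 ± 0.38, edgeR adjusted p = 3.29e-08). Its paralog NDUFA4 had 546.7 and 582.3 CPM against 119.0 and 115.0 CPM in PC3 (2.27 ± 0.16, edgeR adjusted p = 9.70e-08). ATP5MF, a membrane subunit of ATP synthase, had 265.1 and 265.3 CPM against 47.9 and 52.2 CPM in PC3 (2.41 ± 0.17, edgeR adjusted p = 7.49e-08). COX6A1 (1.92) and NDUFB2 (1.5) were also among those with the lowest adjusted p. None of these overlapped between the lines. On the other side, SDHD had 65.2 and 80.4 CPM in 22Rv1 and 162.0 and 158.2 CPM in PC3 (-1.14 ± 0.20, edgeR adjusted p = 0.000254).

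Lower in 22Rv1 were also SDHA (-0.84, edgeR adjusted p = 0.00106), NDUFB5 (-0.78), NDUFS1 (-0.61), NDUFS6 (-0.56) and NDUFA8 (-0.51). Under the GC and length correction NDUFB5 and NDUFS1 turned to log2 fold changes of 0.11 and 0.24, and NDUFS6 was lost without each of the 4 libraries. SDHC, by contrast, was higher in 22Rv1 (0.83, edgeR adjusted p = 9.83e-05) and SDHB did not pass (0.18, edgeR adjusted p = 0.219; 0.81 and called with the correction). The median of all genes was 0.24 with the correction, beside 0.11 for NDUFB5 and 0.24 for NDUFS1. SDHA (-0.87), SDHD (-0.81) and SDHC (1.07) kept their directions and calls with the correction. The subunits of complex II therefore differed in opposite directions between the lines.

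Mitochondrial genes differed unevenly between the lines. MT-CO2 had 12330 and 14571 CPM in 22Rv1 eGFP libraries and 3897 and 3821 CPM in PC3 eGFP libraries (log2 fold change 1.80 ± 0.15, edgeR adjusted p = 4.82e-07). MT-CO3 (1.7), MT-CYB (1.39), MT-ND3 (1.08), MT-ATP6 (0.64), MT-ND2 (0.59), MT-CO1 (0.56) and MT-ATP8 (0.41) were also higher. MT-ND4, a core membrane subunit of complex I, had 7640 and 7934 CPM against 8778 and 8976 CPM in PC3 and did not pass (-0.19, edgeR adjusted p = 0.208). Nor did MT-ND1 (0.24), MT-ND4L (-0.18), MT-ND5 (-0.34) and MT-ND6 (-0.16). With the GC and length correction MT-ND1 (0.59), MT-ND4 (0.50), MT-ND5 (0.40) and MT-ND6 (0.45) were called higher in 22Rv1, and MT-ND4L (0.04) was not called. The median of all genes then stood at 0.24 rather than 0.0. MT-CO2 (2.39) and MT-CO3 (2.22) still led. As a share of mitochondrial counts, MT-CO2 took 19.0% in 22Rv1 and 9.02% in PC3, and MT-ND4 took 11.01% in 22Rv1 and 20.8% in PC3. The mitochondrial genome is transcribed into long precursors that are cut into these transcripts; how the shares arose was not tested.

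**Figure D5:**
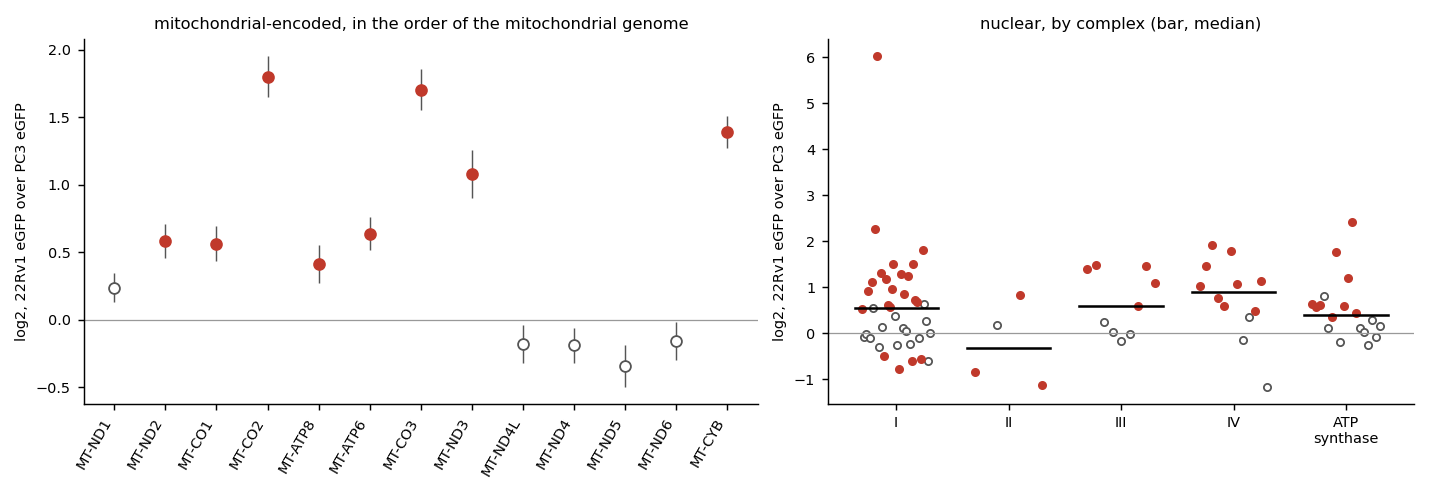
Log2 fold change of 22Rv1 eGFP over PC3 eGFP libraries for the 13 mitochondrial genes in genome order (with standard errors) and for the nuclear members by complex (bars are medians); filled red points have an adjusted p under 0.05. MT-CO2, MT-CO3 and MT-CYB lie at 1.39 or above while MT-ND4 and MT-ND5 lie below 0 (0.50 and 0.40 with the GC and length correction), and NDUFA4L2 stands apart from the other nuclear members at 6.02.

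Isoforms known from muscle, testis or lung were scarcely detected. COX6A2, the muscle partner of COX6A1, had 0 counts in all 12 libraries, COX7B2 at most 0.022 CPM, COX6B2 at most 0.214 CPM, COX8C at most 0.239 CPM and COX7A1 at most 0.328 CPM. Their ubiquitous partners COX6A1, COX6B1, COX7A2, COX7B and COX8A had 50.6 to 528.8 CPM. The COX4 genes lie outside the naming rule: COX4I2, a hypoxia-linked isoform, was at most 0.044 CPM, while COX4I1 had 262.2 to 976 CPM. COX6B1 (0.77), COX7A2 (1.07) and COX8A (1.14) were higher in 22Rv1 than in PC3 eGFP libraries, and COX7B did not pass (0.35, edgeR adjusted p = 0.078). The 5 members left out of the tests were COX6A2, COX6B2, COX7B2 and the read-through genes NDUFC2-KCTD14 and ATP5MF-PTCD1.

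Genes that serve the complexes without being subunits were read from lists chosen with earlier results of these data known. Between 22Rv1 ETV4AAA and ETV4WT libraries, 10 of 18 tricarboxylic acid cycle genes fell and none rose, with SUCLG1 at -0.62, SUCLG2 at -0.56 and DLAT, the acetyltransferase of pyruvate dehydrogenase, at -0.55. Of the mitochondrial ribosomal proteins 25 of 78 fell (MRPL24 -0.98, MRPL18 -0.63, MRPS25 -0.65), of assembly factors 13 of 47 (FOXRED1 -1.02, COA4 -0.67, COA3 -0.57), and of mitochondrial gene expression factors 4 of 29 (POLG2 -0.62, MTERF4 -0.40, SLIRP -0.54), and none rose. Over all genes 9.62% fell in this comparison. The electron carrier cytochrome c (CYCS, -0.82), the acyl carrier subunit NDUFAB1 (-0.66) and the ATP synthase inhibitor ATP5IF1 (-0.52) fell among 5 pathway genes outside the naming rule. Of 12 regulators, MYC (-0.81) and the coactivator PPARGC1B (-0.77) fell and PPARGC1A (1.29) rose.

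Against eGFP, 9 of 18 tricarboxylic acid cycle genes fell in 22Rv1 ETV4AAA libraries (DLAT -0.67, citrate synthase CS -0.52, fumarase FH -0.57), where 14.4% of all genes fell. Of the mitochondrial ribosomal proteins 7 of 78 fell and 2 rose, a lower share of falls than over all genes, and of the assembly factors 9 of 47 fell and 1 rose. Regulators were mixed: PPARGC1B (-1.34), MYC (-0.63) and PPRC1 (-0.79) fell, and PPARGC1A (1.03) and ESRRG (1.02) rose. PPARGC1B had 10.7 and 8.4 CPM in 22Rv1 ETV4AAA libraries, 14.4 and 18.1 CPM in ETV4WT libraries and 24.7 and 23.6 CPM in eGFP libraries, without overlap. In PC3 it had 57.7 and 54.7 CPM in ETV4AAA, 27.5 and 28.8 CPM in ETV4WT and 65.6 and 68.2 CPM in eGFP libraries, so that PC3 ETV4WT libraries were the low ones (-1.25 ± 0.15 against eGFP, edgeR adjusted p = 0.000135). NRF1 (0.98) and PPARGC1A (0.84) rose and PPRC1 (-0.98) fell in that comparison. There 13 of 78 mitochondrial ribosomal proteins fell and 1 rose, beside 10.7% and 12.7% of all genes.

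Between the lines, mitochondrial gene expression factors differed in the opposite direction to the mitochondrial genes, with 21 of 29 lower and 4 higher in 22Rv1 eGFP libraries (median -0.78). Among them were the methyltransferase TFB1M (-2.18), the tRNA-processing factor TRMT10C (-2.17) and FASTKD1 (-2.23), while MTERF4 (1.42) was higher. For protein-coding genes of at least 20 CPM, the median in this comparison fell with transcript length. It was -0.08 up to 1000 bases, -0.20 from 1000 to 2000, -0.44 from 2000 to 3000 and -0.78 over 3000 bases. Whether the shift of the gene expression factors was particular to them, given their transcript lengths, was not tested. Of the assembly factors 14 of 47 were higher and 17 lower, and of the mitochondrial ribosomal proteins 21 of 78 were higher and 26 lower, close to the 34.9% and 36.0% of all genes.

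Several members are uncertain for how reads could be assigned. Other annotated genes overlap at least 50% of the coding sequence of 11 tested nuclear members, among them NDUFV2, UQCR11, NDUFB8, NDUFA7, COX8A and COX6A1. Their median level was 29.4 CPM per kb, with a range of 0.92 to 230. It was 145 CPM per kb for 12 members with under 50% overlapped and 178 CPM per kb for 55 with none. Tissue isoforms, read-through genes and ATP5MGL were left out of these medians. Of the 11 members, 5 were among the falls of 22Rv1 ETV4AAA against ETV4WT and 5 among those against eGFP. Among the genes higher in 22Rv1 than in PC3 were 6 of them. MTATP6P1, a nuclear copy of MT-ATP6 on chromosome 1, took counts equal to 13.9% to 17.0% of those of MT-ATP6. SDHAP1 reached at most 13.8 CPM and SDHAP3 4.96 CPM, beside 141.8 to 687.6 CPM for SDHA.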

How the data were processed

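Poly(A)-enriched RNA sequencing libraries of 22Rv1 and PC3 cells were analysed, 2 per group in 6 groups. The deposited table holds whole-number counts per gene for 58302 genes, not normalized. FastQC 0.11.9, STAR 2.5.3a and GRCh38 are named in the submitters' processing notes; the counting program, its strand setting and the annotation were not given in the sources used here (99.55% of the gene IDs are in GENCODE release 29, which supplied lengths, GC content and overlaps). Genes were matched by ID.

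Groups were taken from the labels. Counts were filtered by edgeR's filterByExpr, scaled by TMM and fitted over all 12 libraries with 1 mean per group by edgeR 4.0.16 (R 4.3.3), leaving 6 residual degrees of freedom and a common biological coefficient of variation of 0.149. The 9 contrasts were tested by edgeR's quasi-likelihood F test, 2-sided, with Benjamini-Hochberg adjustment over the 23238 genes tested; a gene is called at an adjusted p under 0.05. CPM are counts scaled to a common library total. That total is the sum over the genes tested, multiplied by the TMM factor of the library. Depth of 41698738 to 51199207 counts per library leaves the low-count isoforms imprecise, and 2 libraries per group limit every test.

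The 13 mitochondrial genes, the SDH subunits, the tissue isoforms and their partners were named throughout, with up to 6 nuclear members per direction by lowest adjusted p in each comparison and up to 3 called genes per direction from each list of non-members; further genes are given as examples. NDUFS3 was chosen after its values were seen. Some genes that this rule names are not reported here. The members and lists were chosen with earlier results of these data known. Alternatives were DESeq2 1.42.0 size factors and its Wald test, upper-quartile factors, scaling on nuclear genes alone, no filter on low counts, each line fitted alone, a replicate block, and leaving out each library. After the data had been seen, a correction was added that fits, per library, a spline trend (5 degrees of freedom) on transcript GC and length over genes above 5 CPM and uses it as an offset; 99.6% of tested genes had both values. The script was tested on simulated data. Promoters are from RefSeq (GRCh38.p14); other sequence was not used here.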

Additional observations from a re-analysis of the deposited data

Results flagged for a closer look

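In 11 nuclear members the effect of a construct differed between the lines, by edgeR's test of the interaction with Benjamini-Hochberg adjustment over all genes tested. These were 6 of 81 for ETV4AAA and 5 of 81 for ETV4WT. Over all genes, 6.73% were negative and 9.48% positive for ETV4AAA, and 7.57% negative and 4.92% positive for ETV4WT. With both directions counted, members were called less often than genes at large. Each value is the log2 fold change against eGFP in 22Rv1 minus that in PC3.

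For ETV4AAA the values were -1.17 for SDHA (adjusted p = 0.00720), -0.72 for NDUFS1 (0.0160), -0.56 for ATP5F1B (0.0349), -0.67 for ATP5MC1 (0.0385), -1.32 for NDUFV2 (0.0461) and 1.57 for NDUFA4L2 (0.0476). The SDHA value was called without each library in turn. NDUFV2 had under 1.5 CPM in all 12 libraries, and NDUFA4L2 had at most 2.09 CPM in PC3.

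For ETV4WT the values were 0.88 for NDUFB4 (adjusted p = 0.0220), 0.62 for NDUFV3 (0.0259), 0.86 for COX6B1 (0.0346), 0.81 for NDUFB10 (0.0424) and 0.82 for NDUFA2 (0.0443). With 2 libraries per group, none of these 5 was called under every omission of a library.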

How the results depend on the processing

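Of 67 named changes of single genes, repeated 827 times under the alternatives, 825 repeats had the same direction, 630 of them called and 195 not. The reversed ones were NDUFB5 (0.11) and NDUFS1 (0.24) between the lines under the GC and length correction, where the median of all genes was 0.24. The cause was not tested. The number of members called moved as follows. For PC3 ETV4WT against eGFP (4) it was 2 with DESeq2 size factors, 1 (higher, mitochondrial) with upper-quartile factors, 2 with nuclear scaling, 11 with no filter, 0 in PC3 alone, 2 by the Wald test, 13 with the GC and length correction, 1 (higher, nuclear) without both PC3 construct libraries of number 2, and 0 to 11 leaving out 1 library. For PC3 ETV4AAA against eGFP (0) it was 6 with no filter, 0 to 8 leaving out 1 library, and 1 with DESeq2 size factors, upper-quartile factors, the GC and length correction, the Wald test, or without both libraries of number 2. PC3 ETV4AAA against ETV4WT (0) gave 7 with the GC and length correction. 22Rv1 ETV4WT against eGFP (0) gave 1 with DESeq2 size factors, upper-quartile factors, the line alone or the Wald test, 4 with no filter, 13 with the correction and 0 to 4 leaving out 1 library. 22Rv1 ETV4AAA against eGFP (18) gave 56 with the correction, 11 by the Wald test and 3 to 12 leaving out 1 library; against ETV4WT (41), 69 and 12 to 46. The ETV4WT interaction (5) gave 3, 1 and 2 under the 3 scalings, 12 with no filter, 27 with the correction, 1 (negative) without both libraries of number 2 and 0 to 14 leaving out 1 library; the ETV4AAA interaction (6) gave 11 with no filter, 36 with the correction and 1 to 6 leaving out 1 library. Between the lines no alternative moved the count by over 1.5 times. With upper-quartile factors the median of all genes was 0.12 in PC3 ETV4WT against eGFP, 0.32 between the lines and -0.16 in the ETV4WT interaction, where TMM gave 0.00, 0.00 and 0.02.

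The mitochondrial to nuclear ratio as medians per kilobase was 25.4, 19.7 and 20.8 in 22Rv1 ETV4AAA, ETV4WT and eGFP and 19.0, 22.1 and 20.7 in PC3; without MT-CO1 and MT-CO2 it was 3.08, 2.33, 2.38, 2.42, 2.65 and 2.29.

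With the replicate number as a block the counts were 10, 1 and 0 in PC3 for ETV4WT against eGFP, ETV4AAA against eGFP and ETV4AAA against ETV4WT, 1, 18 and 44 for the same comparisons in 22Rv1, 54 between the lines, and 11 and 4 for the ETV4WT and ETV4AAA interactions. Same-numbered libraries deviated together at r = 0.494 between PC3 ETV4AAA and ETV4WT and at -0.149 to 0.212 in the other pairs of groups, so the numbers were not taken as pairing.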
